A study of Chlorella sp. with 12 samples.

Results

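The autophagy genes of the green alga *Chlorella* sp. TLD6B were taken as the unigenes whose KO name (the KEGG orthology name in the annotation table) held an ATG, beclin, VPS34, VPS15, ULK, MTOR, RPTOR or MLST8 symbol. This gave 248 of 155503 unigenes, which fell under 16 of 3282 KO IDs. The names MTOR, RPTOR and MLST8, which belong to the TOR kinase complex, were each carried by 0 unigenes, as were ATG13, ATG101, ATG11 and ATG14. The members therefore came from ATG1 and ULK4, which belong to 1 kinase family, and from the lipid kinase complex (VPS34, VPS15, ATG6). Others were the membrane proteins ATG9, ATG2 and ATG18, the ATG8 system (ATG8, ATG4, ATG7, ATG3) and the ATG12 system (ATG12, ATG10, ATG5, ATG16L). The 12 RNA-seq libraries form 6 groups of 2, all from cells of strain TLD6B grown in BBM medium under a light-dark cycle. CK0 was the untreated culture on day 0 and CK18 the untreated culture on day 18. On the same day 18, Nacl1 held 0.1 M NaCl (low salinity) and Nacl2 held 0.8 M NaCl (high salinity), while PEG1 held 0.05 g/mL PEG-6000 (mild drought) and PEG2 held 0.1 g/mL PEG-6000 (high drought). The study describes the libraries of a group as biological replicates.

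In autophagy, a cell encloses part of its cytoplasm in a double membrane and delivers it to the vacuole, where proteases break it down. The kinase ATG1 starts the process, VPS34 makes the phosphoinositide that marks the growing membrane, ATG9, ATG2 and ATG18 supply lipid to it, and ATG8 is joined to its lipids by enzymes that work like those of ubiquitin. In algae and plants the pathway is known for the recycling of cell content when nutrients are short or under stress, and TOR kinase holds it back when nutrients are ample.

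Expression was read as FPKM (a fragment number corrected for unigene length and for the total mapped in that library), and FPKM were also summed over all unigenes of a KO ID. The 16 sums rest on few or many unigenes, from 4 for ATG10 to 39 for VPS15. One unigene held 92.4% of the mean ATG8 sum but only 14.4% of the VPS15 sum. Of the 248 members, 62 were above 0 in all 12 libraries, 17 were at 0 in all of them and 61 had a mean of at least 1 FPKM. The best NR protein was from a green alga for 193 members, of which 145 matched *Chlorella variabilis* and 32 *Auxenochlorella protothecoides*, and from another organism for 55. The label of a green alga fits the data, since 17 photosynthesis KO sums had values in every library, with rbcS, the small subunit of Rubisco, at 23153 FPKM or more. Unigenes above 0 numbered 72356 to 98278 per library, the fewest in CK18 and the most in PEG1.

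Before testing, the KO sums of a library were scaled by a median-ratio factor, taken against the geometric mean of each sum, which was 0.665 to 1.62 over the salt, drought and age fits. In each fit it was lowest in CK18, and it was highest in Nacl2, PEG1 and CK0. This choice matters here. In the FPKM as deposited, the median of all tested KO sums lay 0.76 above CK18 in Nacl1, 0.92 in Nacl2, 0.62 in PEG1 and 0.06 in PEG2 on the log2 scale, and by -1.0 in CK18 relative to CK0. Fold changes of KO sums are relative to that median. Unigenes were scaled by their own factors, 0.746 to 1.52 over the same fits. Their fold changes are therefore not on the scale of the sums. In bulk samples, fewer cells that express a gene cannot be told apart from less of its RNA per cell. A KO sum was called up- or down-regulated when limma gave a Benjamini-Hochberg adjusted p under 0.05 over all KO sums tested and its log2 fold change was 1 or more in either direction.

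**Figure D1:**
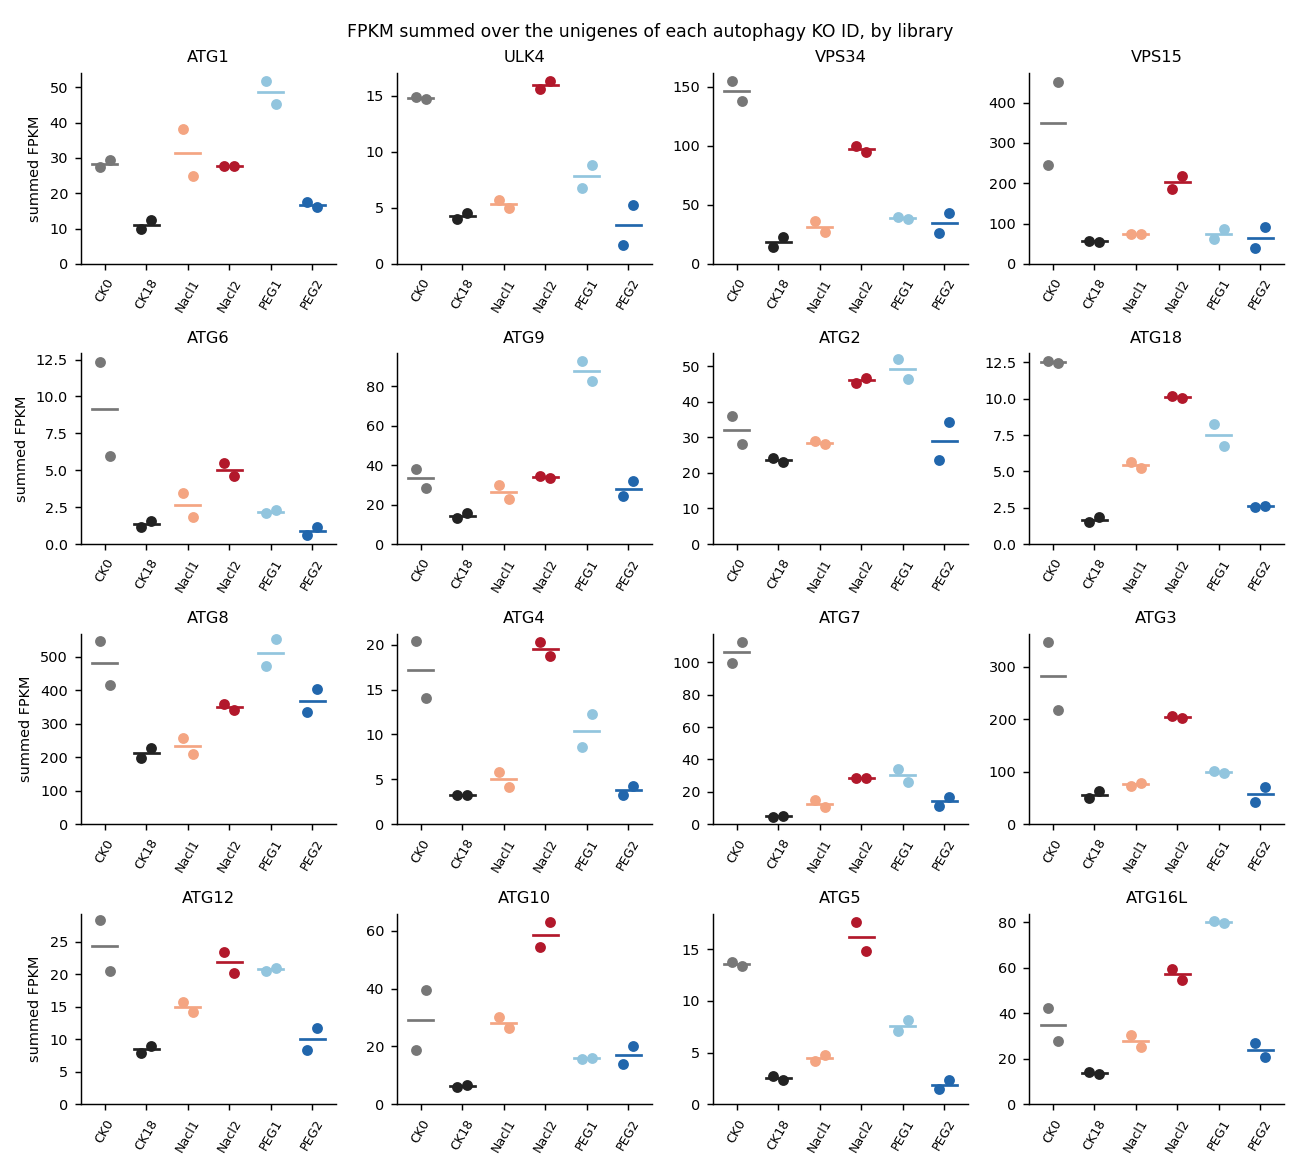
FPKM as deposited, summed over the unigenes of each of the 16 autophagy KO IDs (y axis, linear from 0), by group (x axis), with 1 point per library and a line at the mean of the 2 libraries. The sums of VPS34, VPS15, ATG7 and ATG3 were highest in CK0, those of ATG10 and ATG5 in Nacl2, and those of ATG1, ATG9 and ATG16L in PEG1.

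Part of the autophagy KO sums were lower in the day-18 control than on day 0, and part were higher at high salinity and at mild drought than in that control, while the rest were not called. As deposited, 13 of the 16 had their lowest group mean in CK18, against 36.2% of all KO sums. From CK0 to CK18, 9 of 16 sums were down-regulated and 0 up-regulated, against 24.9% of all 3073 tested KO sums called down and 25.7% called up. The median log2 fold change of the 16 was -1.25, against -0.08 for all. In Nacl2 vs. CK18, 7 of 16 were up-regulated and 0 down-regulated, with 25.4% of all 3107 called up and 22% called down, and the medians were 0.90 and -0.03. In Nacl1 vs. CK18, only ATG10 was up-regulated, where 10.7% of all KO sums were called up and 8.63% down, and the medians of the 16 and of all were 0.10 and 0.09. In PEG1 vs. CK18, 5 of 16 were up-regulated and 0 down-regulated, against 10.6% and 12.1% of all 3085, with medians of 0.69 and 0.02. In PEG2 vs. CK18, limma called 0 of 16, with 0.486% of all KO sums called up and 0.746% down, although 6 of the 16 had an unadjusted p under 0.05, against 19.2% of all, and the medians of the 16 and of all were 0.37 and 0.00. These counts depend on the scaling. In the FPKM as deposited they were 15 in CK18 vs. CK0, 5 in Nacl1, 14 in Nacl2 and 12 in PEG1 vs. CK18. With the factors of the unigenes they were 2 in Nacl1 and 14 in Nacl2. Another scaling moves all KO sums, and the shares of all KO sums called under it are not given here. These counts therefore cannot be read as particular to the 16. Both salt comparisons, and both drought comparisons, use the same CK18 libraries.

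The sums also differed between the doses of a treatment. In Nacl2 vs. Nacl1, 6 of 16 were up-regulated and 0 down-regulated, against 19.5% of all KO sums called up and 16.1% down. In PEG2 vs. PEG1, 3 of 16 were down-regulated and 0 up-regulated, against 4.83% called down and 8.23% called up. Of the calls against CK18, all 7 in Nacl2 and the 1 in Nacl1 held when each library was left out in turn, but in PEG1 only those of ATG9 and ATG16L did, and the number fell to 2 without CK18 replicate 1 or PEG1 replicate 1 and to 3 without PEG1 replicate 2. The 3 calls in PEG2 vs. PEG1 were 0 without any one of the CK18 or PEG1 libraries. In CK18 vs. CK0, 6 of the 9 calls held throughout.

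**Figure D2:**
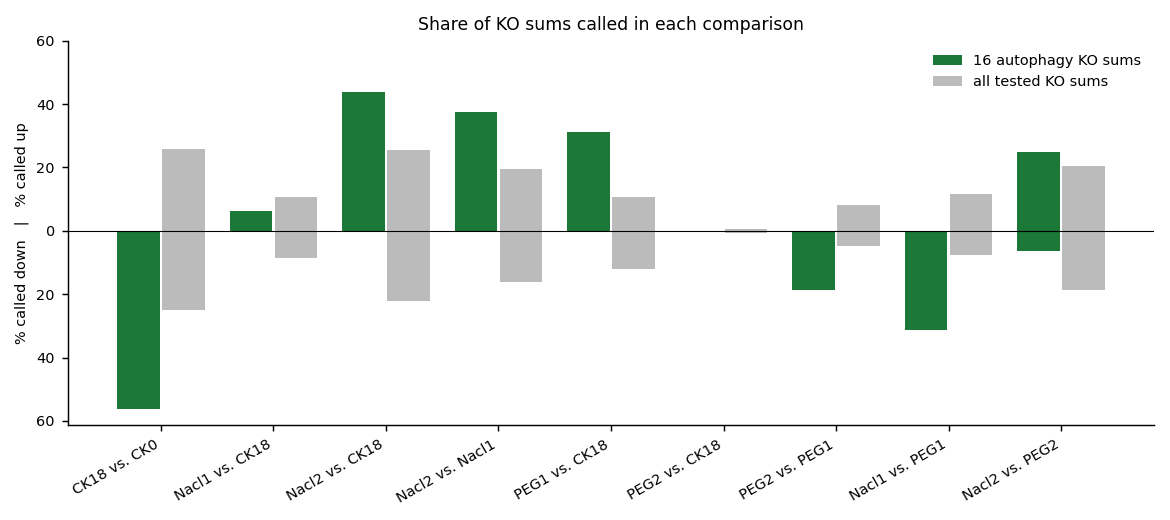
Percent of KO sums called up (above 0) and down (below 0) in 9 comparisons, for the 16 autophagy KO sums (green) and for all KO sums tested (grey). In CK18 vs. CK0 the green bar is at 56.2% down against 24.9% for all, and in Nacl2 vs. CK18 it is at 43.8% up against 25.4%.

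ATG1, the kinase at the start of the pathway, had its highest sums at mild drought. The ATG1 sum was 9.88 and 12.28 FPKM in CK18, 51.89 and 45.26 in PEG1 and 17.45 and 16.03 in PEG2. The PEG1 values lie above all other libraries, and ATG1 was up-regulated in PEG1 vs. CK18 by a log2 fold change of 1.52 ± 0.26 (SE, adjusted p = 0.00704), a call that was lost without CK18 replicate 1 or either PEG1 library (adjusted p up to 0.0728). In the salt libraries the ATG1 sum was 38.10 and 24.86 in Nacl1 and 27.79 and 27.66 in Nacl2, and in CK0 27.53 and 29.30. These are all above CK18 as deposited, but after scaling the log2 fold changes of 0.78 ± 0.23 in Nacl1 and 0.36 ± 0.23 in Nacl2 were under the fold limit, as was -0.42 ± 0.31 in CK18 vs. CK0. ULK4, a member of the same kinase family that is known in mammals as an inactive kinase, was at 4.03 and 4.57 in CK18, 5.66 and 4.96 in Nacl1 and 15.58 and 16.29 in Nacl2. It was up-regulated in Nacl2 vs. Nacl1 (log2 fold change 1.30 ± 0.22, adjusted p = 0.00202), and its 0.91 ± 0.22 in Nacl2 vs. CK18 stayed under the fold limit. The ULK4 libraries of PEG2 were far apart, at 1.69 and 5.28.

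The lipid kinase complex was high in CK0 and in high salinity. VPS34, the catalytic subunit, had a sum of 154.61 and 138.01 FPKM in CK0, 14.54 and 22.98 in CK18, 36.49 and 26.67 in Nacl1 and 99.70 and 94.47 in Nacl2. CK0 lies above Nacl2, and Nacl2 above all remaining libraries. VPS34 was down-regulated in CK18 vs. CK0 (log2 fold change -2.05 ± 0.30, adjusted p = 5.17e-05) and up-regulated in Nacl2 vs. CK18 (1.43 ± 0.25, adjusted p = 0.00151). In drought its sums of 39.69 and 38.38 in PEG1 and 26.44 and 42.73 in PEG2 were above CK18, with 0.48 ± 0.33 in PEG1 vs. CK18 and no call.

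VPS15, the protein kinase-like partner of VPS34, had sums of 244.75 and 452.28 in CK0, 57.16 and 54.90 in CK18, and 186.05 and 219.13 in Nacl2, while the Nacl1 sums were 74.96 and 74.56. It was down-regulated in CK18 vs. CK0 (-1.62 ± 0.36, adjusted p = 0.00148), where the CK0 libraries differ widely and the call was lost without CK0 replicate 2 or CK18 replicate 2. In Nacl2 vs. Nacl1 it was up-regulated (1.16 ± 0.15, adjusted p = 0.000732), a call not kept when the 12 libraries were fitted together (adjusted p = 0.0625). Its 0.88 ± 0.15 in Nacl2 vs. CK18 was under the fold limit. ATG6, the beclin homologue of the complex, was the lowest of the 16 sums, at 12.33 and 5.94 in CK0, 1.18 and 1.59 in CK18, 5.51 and 4.58 in Nacl2 and 0.60 and 1.17 in PEG2. ATG6 was down-regulated in CK18 vs. CK0 (-1.65 ± 0.42, adjusted p = 0.00351), a call that was lost without CK0 replicate 1 (adjusted p = 0.0560), and its 0.87 ± 0.37 in Nacl2 vs. CK18 was not called (adjusted p = 0.0728).

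The ATG6 sum joins unigenes that moved apart. A unigene with its best hit in *Citrus clementina*, Cluster-31803.110381, was at 0.89 and 1.44 FPKM in CK18 and at 1.06 and 0.49 in Nacl2. The *Chlorella variabilis* hit Cluster-31803.97035 was at 0.05 and 0.15 in CK18 and at 3.97 and 3.72 in Nacl2, and was listed at 0 in all PEG libraries. Unigenes with hits outside the green algae held 59.4% of the mean ATG6 sum. With only green algal hits summed, ATG6 was up-regulated in Nacl2 vs. CK18 with a log2 fold change of 3.18 (adjusted p = 0.0160). That sum was chosen after seeing the data, so its p is no independent support.

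ATG9, ATG2 and ATG18, which bring membrane and lipid to the growing structure, did not move alike. ATG9, an integral membrane protein, had sums of 13.18 and 15.53 FPKM in CK18, 92.55 and 82.55 in PEG1 and 24.06 and 32.04 in PEG2. The other groups ranged from 22.67 to 38.21, so PEG1 stands apart from all of them. ATG9 was up-regulated in PEG1 vs. CK18 (log2 fold change 1.99 ± 0.26, adjusted p = 0.00424) and down-regulated in PEG2 vs. PEG1 (-1.10 ± 0.26, adjusted p = 0.0319). In Nacl2, at 34.21 and 33.60, its log2 fold change from CK18 was 0.27 ± 0.19, and in CK18 vs. CK0 it was -0.26 ± 0.28.

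ATG18, which binds the phosphoinositide made by VPS34, was low in both untreated and high-drought day-18 cultures. Its sum was 12.57 and 12.49 in CK0, 1.52 and 1.85 in CK18, 5.64 and 5.23 in Nacl1, 10.17 and 10.05 in Nacl2, 8.27 and 6.77 in PEG1 and 2.57 and 2.65 in PEG2. ATG18 was down-regulated in CK18 vs. CK0 (-1.91 ± 0.38, adjusted p = 0.000595) and up-regulated in Nacl2 vs. CK18 (1.58 ± 0.25, adjusted p = 0.000905) and in PEG1 vs. CK18 (1.5 ± 0.33, adjusted p = 0.0170). The PEG1 call was lost without any one of the CK18 or PEG1 libraries, and the 0.96 ± 0.25 in Nacl1 vs. CK18 was just under the fold limit. ATG2, a lipid transfer protein, had no call against CK18 or CK0. Its sum was 24.19 and 23.07 in CK18, 45.42 and 46.80 in Nacl2 and 52.19 and 46.33 in PEG1, and its log2 fold changes were -0.01 ± 0.15 in Nacl2 and 0.45 ± 0.27 in PEG1. The Nacl2 value depends on the scaling, at 0.96 in the FPKM as deposited.

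ATG8, the ubiquitin-like protein that coats the membrane, had the highest mean FPKM of the 16 sums and was called in none of the comparisons with CK18 or CK0. Its sum was 547.38 and 416.56 FPKM in CK0, 196.52 and 227.49 in CK18, 257.06 and 208.27 in Nacl1, 358.41 and 340.22 in Nacl2, 472.61 and 551.12 in PEG1 and 334.56 and 402.77 in PEG2. As deposited, CK18 lay below all groups but Nacl1, which it overlaps. After scaling, the log2 fold change was -0.23 ± 0.25 in CK18 vs. CK0, -0.57 ± 0.14 in Nacl1, 0.66 ± 0.19 in PEG1 and 0.73 ± 0.19 in PEG2. In Nacl2 vs. CK18 it was -0.25 ± 0.14 and turned with the scaling, to 0.72 in the FPKM as deposited and to 0.48 with the factors of the unigenes. Its leading unigene, Cluster-31803.62307 of 1813 bp, was at 186.77 and 216.32 in CK18 and at 349.93 and 334.35 in Nacl2.

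The enzymes that process ATG8 and attach it to lipid, ATG7, ATG4 and ATG3, were all down-regulated in CK18 vs. CK0. ATG7, the activating enzyme of both conjugation systems, had the largest fold change of the 16 sums. It was at 99.87 and 112.52 FPKM in CK0, 4.71 and 5.30 in CK18, 14.87 and 10.33 in Nacl1, 28.74 and 28.79 in Nacl2, 34.22 and 26.38 in PEG1 and 11.39 and 16.74 in PEG2. CK0 stands far above all and CK18 below all. ATG7 was down-regulated in CK18 vs. CK0 (log2 fold change -3.44 ± 0.31, adjusted p = 7.24e-07) and up-regulated in Nacl2 (1.54 ± 0.22, adjusted p = 0.000591) and PEG1 (1.96 ± 0.31, adjusted p = 0.00626). The PEG1 call was lost without CK18 replicate 1 or PEG1 replicate 1 (adjusted p up to 0.0616). The values of 0.60 ± 0.22 in Nacl1 and 1.39 ± 0.31 in PEG2 were not called (adjusted p = 0.0616 and 0.0970).

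ATG4, the protease that trims ATG8, was at 20.40 and 14.02 in CK0, 3.24 and 3.26 in CK18, 5.85 and 4.14 in Nacl1, 20.31 and 18.73 in Nacl2 and 8.56 and 12.28 in PEG1. It was down-regulated in CK18 vs. CK0 (-1.41 ± 0.33, adjusted p = 0.00197) and up-regulated in Nacl2 vs. CK18 (1.59 ± 0.23, adjusted p = 0.000652) and Nacl2 vs. Nacl1 (1.70 ± 0.23, adjusted p = 0.000837). In PEG1 vs. CK18 its 1.03 ± 0.33 missed the threshold (adjusted p = 0.0519). ATG3, the enzyme that passes ATG8 to lipid, was at 347.60 and 216.36 in CK0, 49.14 and 63.17 in CK18, 73.42 and 78.42 in Nacl1 and 205.18 and 202.94 in Nacl2. ATG3 was down-regulated in CK18 vs. CK0 (-1.35 ± 0.27, adjusted p = 0.000602) and up-regulated in Nacl2 vs. Nacl1 (1.16 ± 0.17, adjusted p = 0.00102). Its 0.90 ± 0.17 in Nacl2 vs. CK18 was under the fold limit, and PEG1, at 101.59 and 96.43, gave 0.22 ± 0.30.

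In the ATG12 system, ATG10 was the member called at both salinities. ATG10, the conjugating enzyme for ATG12, was at 5.95 and 6.78 FPKM in CK18, 30.15 and 26.24 in Nacl1, 54.31 and 63.00 in Nacl2, 15.76 and 16.05 in PEG1 and 13.78 and 20.26 in PEG2. It was up-regulated in Nacl1 (log2 fold change 1.43 ± 0.19, adjusted p = 0.00112) and in Nacl2 (2.22 ± 0.19, adjusted p = 5.00e-05), the largest change of the 16 in that comparison. In drought its 0.71 ± 0.29 in PEG1 and 1.32 ± 0.29 in PEG2 were not called (adjusted p = 0.110 and 0.0942). The CK0 libraries of ATG10 were at 18.90 and 39.32, and the call in CK18 vs. CK0 (-1.15 ± 0.42, adjusted p = 0.0283) was lost without CK0 replicate 2 or either CK18 library.

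ATG5, which is joined to ATG12, was at 13.73 and 13.37 in CK0, 2.77 and 2.38 in CK18, 4.14 and 4.77 in Nacl1, 17.61 and 14.81 in Nacl2, 7.06 and 8.12 in PEG1 and 1.45 and 2.36 in PEG2. As deposited, Nacl2 lies above every other library and PEG2 below. After scaling, CK0 replicate 2 (11.36) lies above Nacl2 replicate 2 (11.03). ATG5 was down-regulated in CK18 vs. CK0 (-1.43 ± 0.36, adjusted p = 0.00316) and in PEG2 vs. PEG1 (-1.44 ± 0.37, adjusted p = 0.0387), and up-regulated in Nacl2 vs. CK18 (1.66 ± 0.23, adjusted p = 0.000544) and Nacl2 vs. Nacl1 (1.57 ± 0.23, adjusted p = 0.00117). ATG16L, which holds the ATG12 and ATG5 conjugate on the membrane, was at 14.16 and 13.20 in CK18, 30.54 and 25.29 in Nacl1, 59.49 and 54.70 in Nacl2, 80.31 and 79.42 in PEG1 and 26.85 and 20.79 in PEG2. It was up-regulated in both Nacl2 (1.09 ± 0.16, adjusted p = 0.000603) and PEG1 (1.93 ± 0.24, adjusted p = 0.00413) and down-regulated in PEG2 vs. PEG1 (-1.21 ± 0.24, adjusted p = 0.0217), while its changes of 0.32 ± 0.16 in Nacl1 and -0.38 ± 0.28 in CK18 vs. CK0 were not called. ATG12 itself, at 7.87 and 8.99 in CK18, 23.39 and 20.21 in Nacl2 and 20.50 and 20.95 in PEG1, had no call, with 0.40 ± 0.18 in Nacl2 and 0.68 ± 0.28 in PEG1.

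**Figure D3:**
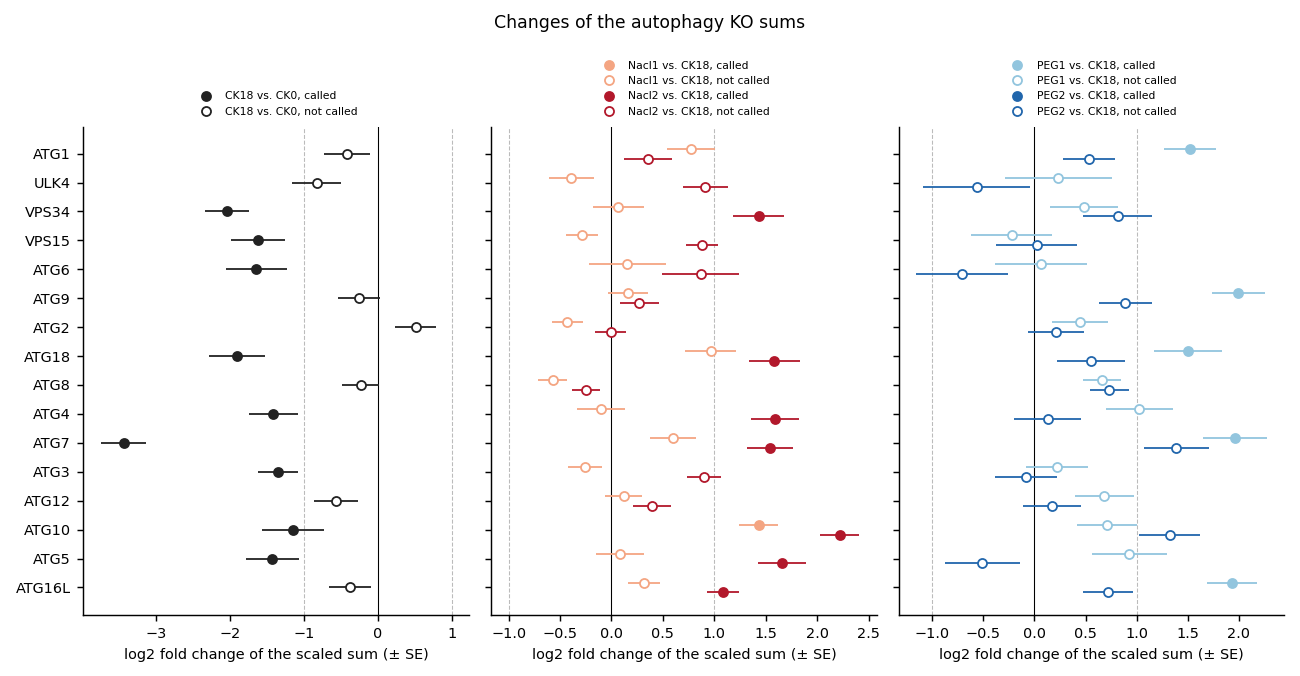
Log2 fold change (x axis) of the 16 scaled autophagy KO sums (y axis) in CK18 vs. CK0, in both salinities vs. CK18 and in both droughts vs. CK18, with bars of 1 SE from limma, filled points for called sums and dashed lines at the fold limit. ATG7 lies farthest left in CK18 vs. CK0 at -3.44, ATG10 farthest right in Nacl2 at 2.22 and ATG9 in PEG1 at 1.99, and PEG2 has no filled point.

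Salt and drought cultures were also set against each other in 1 fit of all 12 libraries. In Nacl1 vs. PEG1, 5 of 16 sums were lower and 0 higher in Nacl1, against 7.58% of all 3205 KO sums called down and 11.7% called up. These were ATG9 (log2 fold change -1.82 ± 0.22, adjusted p = 0.000315), ATG16L (-1.60 ± 0.19, adjusted p = 0.000293), ATG7 (-1.35 ± 0.29, adjusted p = 0.00692), ATG8 (-1.22 ± 0.16, adjusted p = 0.000526) and ATG4 (-1.12 ± 0.28, adjusted p = 0.0132). Without Nacl1 replicate 2 the count was 3. The ATG4 call was lost without Nacl1 replicate 2 or PEG1 replicate 2 and with a pseudocount of 1, and the ATG7 call without Nacl1 replicate 2 or PEG1 replicate 1. In Nacl2 vs. PEG2, 4 sums were called higher in Nacl2, against 20.4% of all, and 1 lower, against 18.8%. ATG5 (2.14 ± 0.30, adjusted p = 0.000261), ATG6 (1.55 ± 0.43, adjusted p = 0.0118), ULK4 (1.44 ± 0.45, adjusted p = 0.0199) and ATG4 (1.43 ± 0.28, adjusted p = 0.00162) were higher. ATG8 was lower (-1.02 ± 0.16, adjusted p = 0.000500), but this call depends on the scaling. In the FPKM as deposited 12 sums were called higher and 0 lower, and with the factors of the unigenes 10 and 0. Those counts come without the share of all KO sums called. The ATG8 call was also lost without Nacl2 replicate 1, PEG2 replicate 2 or either CK0 library. The ULK4 call was lost without PEG2 replicate 1 or either Nacl2 library, with a log2 fold change of 0.59 to 2.26 over the libraries left out, and the ATG6 call without Nacl2 replicate 1 or PEG2 replicate 1 (adjusted p up to 0.0699). The count was 3 without PEG2 replicate 1.

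Ranked over the 6 groups after scaling, the sum was highest in CK0 for 6 of the 16, in PEG1 for 5, in Nacl2 for 4 and in PEG2 for 1. Over all 3205 KO sums these shares were 28.7% for CK0, 14.9% for PEG1, 14.6% for Nacl2 and 11.3% for PEG2. The CK0 group held VPS34, VPS15, ATG6, ATG7, ATG3 and ATG18. The PEG1 group held ATG1, ATG9, ATG16L, ATG2 and ATG12, and the Nacl2 group held ATG4, ATG5, ULK4 and ATG10. The lowest level was in CK18 for 8 of the 16, against 19.5% of all KO sums, and in Nacl1 for 5, against 8.92%. Those lowest in Nacl1 were VPS15, ATG8, ATG4, ATG3 and ULK4. PEG2 was lowest for 2, against 12.23%, and CK0 for 1, against 28.17%. Nacl2 and PEG1 were lowest for 0 of the 16, against 19.97% and 11.23% of all KO sums.

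Single unigenes of 1 KO ID went in opposite directions, most clearly in ATG1. A total of 18 ATG1 unigenes share 1 best hit, a protein of *Auxenochlorella protothecoides*. Cluster-31803.82301 of 5446 bp, the leading one, was at 6.75 and 8.33 FPKM in CK18, 9.40 and 8.74 in Nacl1 and 18.29 and 16.03 in PEG1, but was listed at 0 in both Nacl2 libraries. Cluster-31803.52001 of 5519 bp was at 14.96 and 13.48 in Nacl2 and at 0.41 or less in the other 10 libraries. Thus, in Nacl2 Cluster-31803.52001 was seen where Cluster-31803.82301 was not. The 2 did not exclude each other everywhere, since in Nacl1 their means were 0.23 and 9.07 FPKM. Cluster-31803.97871 of 2589 bp was listed at 0 in CK0 and CK18 and was at 10.04 and 8.98 in Nacl1 and 17.69 and 14.08 in PEG1. Cluster-31803.82300 of 1637 bp, also at 0 in CK0 and CK18, was at 8.35 and 9.13 in Nacl2 and at 10.46 and 1.47 in Nacl1. Its mean was 4.225 FPKM in PEG1 and 0 in PEG2. Summed over the 18 unigenes with this hit, the values were 7.73 and 9.14 in CK18, 26.00 and 26.05 in Nacl2 and 44.76 and 39.30 in PEG1, so the sum carried no gap where single unigenes did. The limma adjusted p of Cluster-31803.82301 and Cluster-31803.52001 in Nacl2 vs. CK18 were 0.00107 and 0.00287. Both were picked out for the size of this change, and Cluster-31803.52001 met the filter only through the Nacl2 libraries. These p are thus no independent support, and no fold is given against a group listed at 0.

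VPS15 showed the same kind of pattern, with 37 unigenes that share 1 hit in *Chlorella variabilis*. Cluster-31803.57780 was at 9.36 and 68.28 in CK0, listed at 0 in CK18, and at 6.07 and 9.30 in Nacl1 and 21.79 and 25.45 in Nacl2. Cluster-31803.52584 was at 47.41 and 40.16 in CK0, listed at 0 in CK18, and at 4.36 and 19.42 in Nacl2. In contrast, Cluster-31803.39887 was listed at 0 in CK0 and was at 4.57 and 5.01 in CK18. The leading unigene Cluster-31803.52588 was above 0 in all libraries, from 5.07 in PEG2 to 83.13 in CK0.

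**Figure D4:**
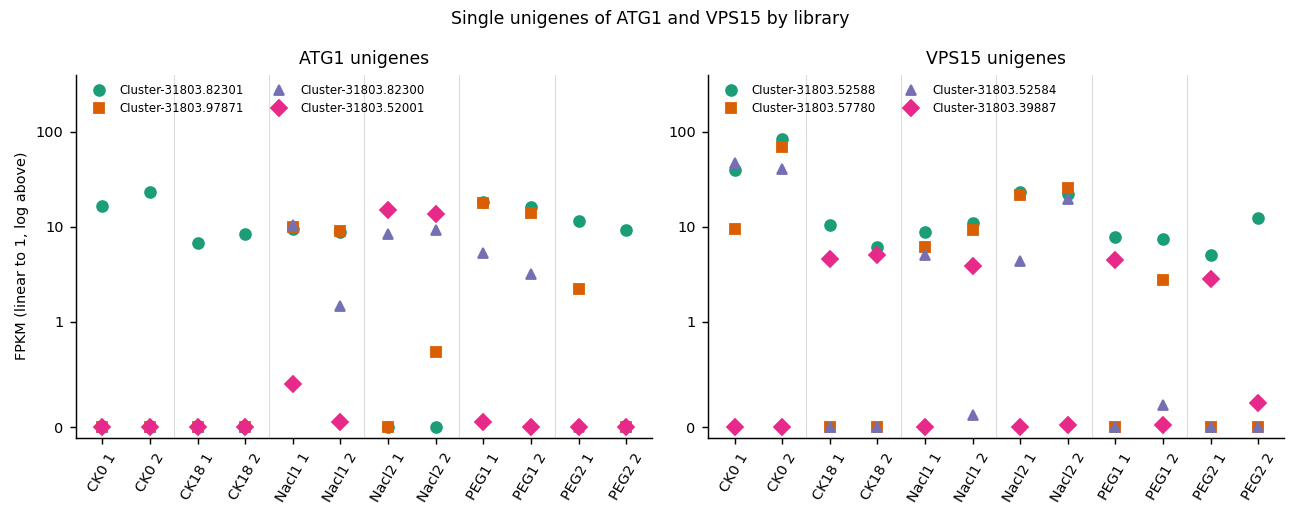
FPKM of 4 unigenes of ATG1 (left) and 4 of VPS15 (right) in each of the 12 libraries, on an axis that is linear up to 1 and logarithmic above. In ATG1, the unigene of 5446 bp is at 0 in both Nacl2 libraries, where that of 5519 bp is at 14.96 and 13.48.

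Over all members, unigenes were called by the same limits as KO sums. In Nacl2 vs. CK18, 43 of 114 tested member unigenes were up-regulated and 8 down-regulated, against 22.4% and 12.9% of all unigenes tested. In CK18 vs. CK0, 31 of 112 were down-regulated and 4 up-regulated, against 18.3% and 13.7%. In Nacl1 vs. CK18, 6 of 114 were up-regulated and 0 down-regulated, against 4.46% and 4.56%, and in PEG1 vs. CK18, 18 of 116 were up-regulated and 1 down-regulated, against 9.49% and 4.69%. In PEG2 vs. CK18, limma called 0 of 116 members and 0% of all unigenes. Its unadjusted p was under 0.05 for 14 of the 116 members, against 14.5% of all unigenes (10576), so the members showed no excess there. In Nacl2 vs. Nacl1, 27 were up-regulated and 6 down-regulated, against 14.6% and 7.94%. In PEG2 vs. PEG1, 10 were down-regulated and 0 up-regulated, against 5.96% and 1.93%. Between treatments, 19 of 163 were lower and 0 higher in Nacl1 vs. PEG1, against 6.84% and 3.06%, and 30 were higher and 5 lower in Nacl2 vs. PEG2, against 12.7% and 8.73%. The unigene counts are less stable than those of the sums when a library is left out. The shares of all unigenes called in those fits are not given here, so the falls cannot be read as particular to the members. The Nacl1 count was 0 without either Nacl1 library and 1 without either CK18 library, the PEG1 count was 0 without any one of the CK18 or PEG1 libraries, and the Nacl2 count was 18 without either Nacl2 library and 29 without CK18 replicate 1. The count in Nacl2 vs. Nacl1 was 1 or 2 without a Nacl2 library and 9 or 4 without a Nacl1 library, that in PEG2 vs. PEG1 was 0 whichever library was left out, and that in CK18 vs. CK0 was 6 to 13.

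Leading unigenes were called in several of these comparisons. Their fold changes rest on the factors of the unigenes and cannot be set against those of the sums. In Nacl2 vs. CK18, the leading unigenes of VPS34 (Cluster-31803.62518, 9.75 and 17.94 against 87.78 and 81.87 FPKM, log2 fold change 2.43, adjusted p = 0.00502), ATG5 (Cluster-31803.99967, 2.27 and 1.42 against 15.85 and 13.55, 2.73, adjusted p = 0.00487) and ATG4 (Cluster-31803.29145, 1.42 and 1.33 against 12.59 and 12.97, 2.90, adjusted p = 0.00675) were up-regulated. In PEG1 vs. CK18, those of ATG9 (Cluster-31803.44693, 6.31 and 7.65 against 48.29 and 41.52, 2.15, adjusted p = 0.0230) and ATG16L (Cluster-31803.78038, 6.19 and 6.22 against 53.58 and 55.54, 2.60, adjusted p = 0.0220) were. In ATG7, Cluster-31803.50451 and Cluster-31803.51813 were down-regulated in CK18 vs. CK0, from 33.04 and 36.82 to 0.11 and 0.79 and from 22.76 and 24.71 to 0.00 and 0.80, with adjusted p = 0.0175 and 0.0421. Both met the filter through the CK0 libraries and were picked out for this change, so these p are no independent support.

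Members with hits outside the green algae held a small share of the autophagy FPKM. Their summed FPKM were 75.95 and 25.38 in CK0, 12.11 and 12.97 in CK18, 32.88 and 19.90 in Nacl1, 10.34 and 3.87 in Nacl2, 41.58 and 32.60 in PEG1 and 13.11 and 8.95 in PEG2, which was 0.324% to 5.02% of the members' total. In summed FPKM, Nacl2 was thus below CK18 but overlapped PEG2, PEG2 overlapped CK18 and PEG1 was above CK18. With green algal hits only, the KO sums called were 9 in CK18 vs. CK0, 1 in Nacl1, 7 in Nacl2, 7 in PEG1 and 0 in PEG2 vs. CK18. The shares of all green algal sums called are not given beside them, so these counts cannot be read against all sums. A further 10 members were above 0 in both PEG1 libraries and in no other library, which is 4.03% of the members against 3.64% of all unigenes. Of these 10, 7 had hits outside the green algae, with 10.12 and 2.34 FPKM in total. The highest were the ATG8 unigenes Cluster-2238.0, at 7.12 and 3.09 with a *Monoraphidium neglectum* hit, and Cluster-2765.0, at 3.73 and 2.47 with a *Coccomyxa subellipsoidea* C-169 hit, beside an ATG8 sum of 472.61 and 551.12.

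Genes around the pathway were taken from lists of KO names. Of 8 vacuolar and lysosome-type proteases, which degrade the delivered cargo, 6 were down-regulated and 1 up-regulated in Nacl2 vs. CK18, and 5 were down-regulated in Nacl1 vs. CK18, against 22% and 25.4% of all KO sums called down and up in Nacl2 and 8.63% called down in Nacl1. The 6 include CTSB and TPP1, which had 0% of their FPKM from green algal hits. Most proteases of the list were thus lower at high salinity, where 7 of 16 autophagy sums were higher. In Nacl2 the protease sums of CTSF (-5.16), PRCP (-5.00) and CTSH (-3.91) had the lowest log2 fold changes, and CPVL was up-regulated (3.33). The CPVL sum was low, at a mean of 1.78 FPKM, where CTSF, PRCP and CTSH had means of 315.1, 356.58 and 642.42. In CK18 vs. CK0, CTSF (4.53), PRCP (3.67) and CTSH (3.46) were up-regulated and CPVL was down-regulated (-4.17). Over all KO sums, 25.7% were called up and 24.9% down there. In PEG1 vs. CK18, CPVL was up-regulated (1.75) and CTSF (-1.54) and CTSH (-1.09) were down-regulated, against 10.6% and 12.1% of all KO sums called up and down.

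For the regulators, the sums of PRKAA, the catalytic subunit of the SNF1-related kinase that activates autophagy, were down-regulated in Nacl1 vs. CK18 (-1.05) and no other sum of the kinase and TOR lists was called there. RPS6KB, the ribosomal S6 kinase downstream of TOR, was up-regulated in CK18 vs. CK0 (2.72) and down-regulated in Nacl2 vs. CK18 (-1.32), with 92.6% of its FPKM from green algal hits. SNF1 and the small GTPase RHEB, at low means of 1.96 and 3.41 FPKM, were down-regulated in Nacl2 (-3.27 and -1.85) and up-regulated in PEG1 (1.54 and 1.55). However, 0% of the FPKM of SNF1, RHEB, RRAGA_B and RRAGC_D came from green algal hits. The part of other organisms in these 4 sums was not tested further. Over all KO sums, 8.63% were called down in Nacl1, 22% down in Nacl2 and 10.6% up in PEG1 vs. CK18, and 25.7% up in CK18 vs. CK0.

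Of 4 vacuole fusion sums, YKT6 was down-regulated in Nacl2 vs. CK18 (-1.70, with 14.4% of its FPKM from green algal hits) and VTI1 in CK18 vs. CK0 (-1.39). The phosphoinositide list held 5 sums, including FAN1, which was taken in only by its other name MTMR15. Of the 5, PIKFYVE, the kinase that uses the product of VPS34, was down-regulated in Nacl1 (-1.92) and Nacl2 (-1.42). Its partner VAC14 was up-regulated in Nacl2 (1.97) and down-regulated in CK18 vs. CK0 (-2.45). MTMR1_2, with 0% from green algal hits and a low mean of 1.77 FPKM, was down-regulated in Nacl2 (-1.96) and up-regulated in PEG1 (1.58). The name tokens of the ESCRT list, meant for ESCRT-III and VPS4, also took in VPS23, VPS25, VPS28, VPS26 and VPS29, which are neither. VPS29 had only 7.99% of its FPKM from green algal hits. The 13 sums of this mixed list gave 3 up- and 4 down-regulated in Nacl2, 2 and 2 in Nacl1, 1 and 2 in PEG1, and 0 and 4 in CK18 vs. CK0. The shares over all KO sums were 25.4% and 22% in Nacl2, 10.7% and 8.63% in Nacl1, 10.6% and 12.1% in PEG1, and 25.7% and 24.9% in CK18 vs. CK0. Of the 13, CHMP3 (1.88) and CHMP6 (1.74) were up-regulated and CHMP2A (-2.20) and CHMP5 (-2.10) were down-regulated in Nacl2, where green algal hits held 91.4% to 98.9% of the FPKM of these 4. In PEG2 vs. CK18, 0 sums of the 6 lists were called.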

How the data were processed

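The authors assembled the reads with Trinity, clustered transcripts into unigenes with Corset, aligned with Bowtie 2, counted with RSEM and deposited FPKM with 2 decimals, with KO names from KAAS and NR hits from Diamond. The submitters' processing notes also name DESeq and the mouse build mm9, which cannot apply to this alga. Counts were not used here, so counting error and depth per value are unknown.

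Members were found by KO name token. Members and lists were chosen with earlier results of these data known. FPKM were divided by median-ratio factors, 0.1 was added and log2 taken. Rows that reached 0.3 FPKM in 2 or more libraries of a fit went into limma 3.58.1 (intensity trend, two-sided, Benjamini-Hochberg over all unigenes or all KO sums tested) in R 4.3.3, which was tested on simulated data. The salt, drought and age fits had 3, 3 and 2 residual degrees of freedom. With 2 libraries a group, an exact permutation test could not reach 0.05. Named unigenes were the leading one of each KO ID and, among those called, not overlapping and at 1 FPKM or more, up to 4 with the largest change each way per comparison; text gives those that carry a pattern. Alternatives covered pseudocount, filter, scaling, block, fit and libraries left out. Replicate numbers did not pair libraries: differences between replicates correlated at -0.0409 to 0.0915 between groups.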

Additional observations from a re-analysis of the deposited data

Results flagged for a closer look

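Several autophagy KO sums differed between treatments that were each compared with the same CK18 libraries, by a limma test of the difference itself. Between the salinities, Nacl2 exceeded Nacl1 on the log2 scale by 1.16 for ATG3, 1.70 for ATG4, 1.57 for ATG5, 1.30 for ULK4, 1.16 for VPS15 and 1.37 for VPS34. Each of these was higher in both Nacl2 libraries than in both Nacl1 libraries. Between the droughts, the log2 fold change of PEG2 vs. PEG1 was -1.44 for ATG5, -1.21 for ATG16L and -1.10 for ATG9. Each of these 3 calls was lost without any one of the CK18 or PEG1 libraries.

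Between the lower doses of salt and of PEG-6000, Nacl1 vs. PEG1 was -1.60 for ATG16L, -1.12 for ATG4, -1.35 for ATG7, -1.22 for ATG8 and -1.82 for ATG9. Between the higher doses, Nacl2 vs. PEG2 was 1.43 for ATG4, 2.14 for ATG5, 1.55 for ATG6 and 1.44 for ULK4, and -1.02 for ATG8. With 1 library left out, the calls of ATG4 and ATG7 in the first of these comparisons and of ATG6, ULK4 and ATG8 in the second could be lost. The doses of the 2 agents are not matched in strength. Groups of 2 libraries are too small to flag a library that stands apart.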

How the results depend on the processing

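Of the counts of called members, 137 stayed within 1.5 times the main count under another setting and 37 did not. In the FPKM as deposited, the KO sums called were 5 in Nacl1, 14 in Nacl2 and 12 in PEG1 vs. CK18, 8 in PEG2 vs. PEG1, 15 in CK18 vs. CK0 and 12 in Nacl2 vs. PEG2, and 53 unigenes in CK18 vs. CK0. These fits lack the scaling that removes the shift in the median of all KO sums. With the factors of the unigenes the KO sums called were 2 in Nacl1 and 14 in Nacl2 vs. CK18, 11 in Nacl2 vs. Nacl1 and 10 in Nacl2 vs. PEG2. Shares of all KO sums called under either scaling are not given beside these counts. The rises therefore cannot be read as particular to the autophagy sums. Directions turned for ATG2 in Nacl2 vs. CK18 (0.96 as deposited, 0.72 with the factors of the unigenes, -0.070 to 0.091 with a library left out) and in CK18 vs. CK0 (-0.43 as deposited), and for ATG8 in Nacl1 vs. CK18 (0.13 as deposited) and Nacl2 vs. CK18 (0.72 as deposited, 0.48 with the factors of the unigenes). With no limit on the fold change, KO sums called were 4 in Nacl1 vs. CK18, 10 in Nacl2 vs. Nacl1 and 8 in Nacl2 vs. PEG2. With all 12 libraries in 1 fit, KO sums called were 2 in Nacl1 and 1 in PEG2 vs. CK18, and unigenes 3 and 1. With only the 2 groups compared, 0 KO sums were called in PEG2 vs. PEG1, and unigenes called were 2 in Nacl1 vs. CK18, 0 in PEG2 vs. PEG1 and 8 in Nacl1 vs. PEG1. The cause was not tested.

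Unigene counts moved with the pseudocount and the filter. With a pseudocount of 1 they were 8 in PEG1 vs. CK18, 0 in PEG2 vs. PEG1, 22 in CK18 vs. CK0 and 10 in Nacl1 vs. PEG1. With no filter they were 1 in Nacl1 and 1 in PEG1 vs. CK18, 0 in PEG2 vs. PEG1 and 9 in CK18 vs. CK0. With a mean FPKM of at least 1 they were 8 in PEG1 vs. CK18, 0 in PEG2 vs. PEG1, 21 in CK18 vs. CK0 and 8 in Nacl1 vs. PEG1, where fewer unigenes were tested. With the replicate block they were 1 in Nacl1 vs. CK18, 0 in PEG1 vs. CK18 and 0 in PEG2 vs. PEG1. The libraries share only a number, and the block left the counts of KO sums within 1.5 times.

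With each library left out in turn, the KO sums called were 1 to 2 in Nacl1, 2 to 6 in PEG1 and 0 to 3 in PEG2 vs. CK18, 0 to 5 in PEG2 vs. PEG1, 3 to 5 in Nacl1 vs. PEG1 and 3 to 7 in Nacl2 vs. PEG2. The unigenes called were 0 to 2 in Nacl1, 18 to 46 in Nacl2 and 0 to 16 in PEG1 vs. CK18, 1 to 34 in Nacl2 vs. Nacl1, 0 to 0 in PEG2 vs. PEG1, 6 to 13 in CK18 vs. CK0, 1 to 19 in Nacl1 vs. PEG1 and 15 to 33 in Nacl2 vs. PEG2. Where this left a group with 1 library, that library was taken to vary like the others in the fit. Shares over all KO sums or all unigenes are not given for the fits with a library left out. The sums with green algal hits only were chosen after seeing the data. With 2 libraries a group and FPKM only, small changes of low unigenes cannot be resolved.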
